A study of Mus with 6 samples.

Results

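The 109 RNAs described here are the microRNA (miRNA) loci with the older, low numbers in a table of 2282 named, mostly long non-coding RNAs. They were taken by name: every name starting with Mirlet7, or with Mir and a number below 1000, except host-gene names ending in hg and Mir34a. RefSeq lists all 109 as miRNA genes, with annotated spans of 58 to 125 bases. RNA came from the substantia nigra pars compacta of the right side, home of the dopaminergic neurons that are lost in Parkinson's disease. Both groups overexpressed human α-synuclein (A53T), a form found in familial disease. The model group (3 samples) received 0.9% saline and the AVE0991 group (3 samples) received AVE0991 at 10 mg/kg, in both cases by intraperitoneal injection each day for 30 days. AVE0991 is a small molecule that activates the Mas receptor in place of its peptide ligand, angiotensin-(1-7). Neither group lacks the transgene; its promoter and the age of the mice are in none of the sources used here. The 6 markers of dopaminergic neurons looked for (Th, Slc6a3, Slc18a2, Ddc, Nr4a2 and Pitx3) have no row among the named RNAs, so the tissue label was not checked against them. Nothing in the labels ties samples to separate animals, so the spread that the p-values rest on may be technical.

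A miRNA is cut from a hairpin inside a longer primary transcript, first in the nucleus by Drosha and then in the cytoplasm by Dicer, and the mature strand guides Argonaute to messenger RNAs that match its seed. Many miRNA genes lie in introns of protein-coding genes or in long non-coding RNAs, and loci in one cluster can share a primary transcript. The values below are reads counted under the name of a miRNA locus in libraries made from total RNA. The way reads were assigned to a name is not stated in the sources, so how far they come from the hairpin or from a longer transcript was not tested. Mature miRNAs are not analysed here. In bulk tissue, fewer cells of one type and less RNA per cell cannot be told apart.

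Values are normalized counts, that is, whole read counts divided by a library factor. Overlap between groups was judged on them. The log2 fold changes come from edgeR with its own scaling (TMM), so they can differ slightly from the ratio of the listed values. Their median over the 87 tested loci was -0.38 with TMM and -0.44 with the library factors. Whole counts for each library were recovered from the group means and test statistics that the authors deposited. The recovered libraries of each group are called a, b and c and carry no replicate number. The sums below leave out 7 named RNAs with counts above the level searched and 4 with several possible count sets. The remaining named RNAs held between 1557654 and 1777094 counts per AVE0991 library and between 2006366 and 2154023 per model library. The 6 full libraries held 37036986 to 52029003 counts over all identifiers. Of the counts of the remaining named RNAs, the miRNA loci described here made up 10.3% to 10.9% in the AVE0991 libraries. In the model libraries they made up 11.5% to 13.2%, with model c the lowest. Their share of all named counts is therefore lower, by an amount not given here.

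The comparison asks which of these loci differed with AVE0991 treatment in α-synuclein transgenic mice. Of 109 loci, 87 had enough counts to be tested; 18 fell with AVE0991, 1 rose (Mir135a-1) and 68 did not pass (edgeR quasi-likelihood test, Benjamini-Hochberg adjusted p under 0.05 over all 1864 names tested). Across all names tested, 8.32% were called lower and 7.73% higher, against 20.7% and 1.15% of these loci. The 18 that fell had log2 fold changes from -0.50 (Mir30a) to -1.60 (Mir133a-2), with a median of -0.85, and lie on 10 chromosomes. All 4 tested miR-30 loci fell; in let-7, miR-15/16, miR-344, miR-129, miR-219 and miR-378 at least 1 tested locus fell and at least 1 did not pass.

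Values lower with AVE0991 were found well beyond the called loci. A negative log2 fold change was found at 72 of the 87 tested loci, against 955 of all 1864 names tested. The median was -0.38, against -0.02 over all names tested. In 41 loci (47.1%) every AVE0991 library was below every model library, and in 1 locus every AVE0991 library was above; over all names tested these shares were 22.5% and 16.5%. Of the 132 tested miRNA loci numbered 1000 and above, 121 had a negative log2 fold change, and their median was -0.35. In the same edgeR test, 16 of them were lower and none higher at the adjusted threshold. RefSeq long non-coding RNAs (1473 tested) had a median of 0.06, and the 26 small nucleolar RNAs, another class of short RNA genes, had one of -0.16. The distributions of these fold changes are plotted for both sets of miRNA loci and for the remaining names.

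**Figure D1:**
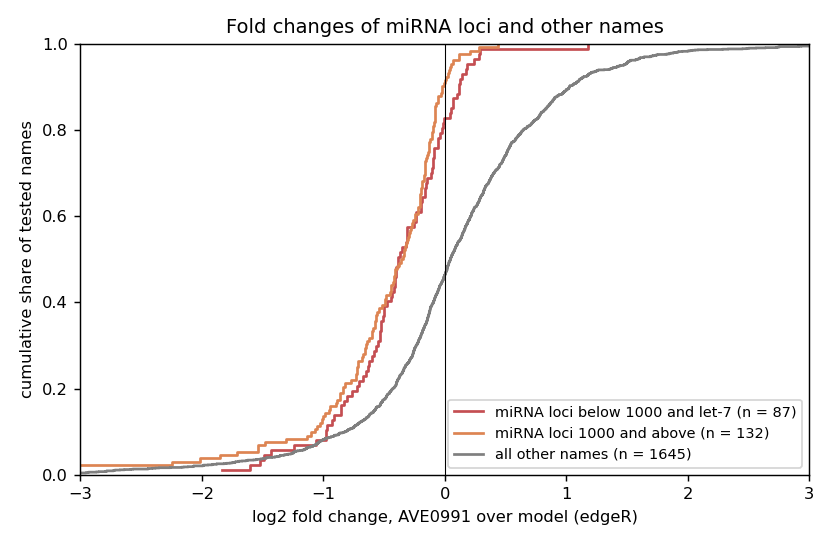
Cumulative distribution of log2 fold changes (AVE0991 over model, edgeR; x axis cropped at -3 and 3) for the 87 tested miRNA loci numbered below 1000 and let-7, the 132 tested loci numbered 1000 and above, and the 1645 other tested names. Both miRNA curves lie to the left, with medians of -0.38 and -0.35, and the curve of the other names crosses its median at 0.05.

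These counts moved with annotated length and with single libraries; the part of either in the result was not tested further. Of 246 tested names with a RefSeq span under 200 bases, 220 were miRNA loci. With the trend of expression on span taken out of each library, 1 of the 87 loci was lower (Mir133a-2), 4 were higher and the median was 0.06. Each library was also described by the median, over these loci, of the log2 deviation from the locus's own mean. This was -0.17 (a), -0.15 (b) and -0.17 (c) in the AVE0991 libraries and 0.33 (a), 0.25 (b) and 0.10 (c) in the model libraries. Model c thus lay nearest to the AVE0991 group, and it held the lowest model value for 15 of the 18 loci that fell. The number lower was 3, 8 and 4 without AVE0991 a, b and c, 4 and 2 without model a and b, and 21 without model c. Mir30b and Mir133a-2 passed in all 6 of these fits. Each of the other 17 calls was lost in at least 2 of them and at most 5, and none was lost in the fit without model c. The calls over all names in these fits and in the span fit are not given here. The counts of loci lower or higher therefore cannot be set against a share over all names.

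The miR-30 family gave the most uniform picture. Its members share a seed, are abundant in many tissues and are encoded at several loci. Here these are Mir30a and Mir30c-2, consecutive miRNA loci more than 10 kb apart on chromosome 1, and the neighbours Mir30b and Mir30d on chromosome 15. Whether the loci of either pair share a primary transcript was not tested, so the 4 calls may not be independent. Mir30b had normalized counts of 2703, 2556 and 2106 with AVE0991 and of 4837, 4743 and 4007 in the model group; values are always listed in the order a, b, c. All AVE0991 values lay far below the lowest model value. Its log2 fold change was -0.83 ± 0.14 (SE), with the smallest adjusted p of all 109 loci (0.00799, edgeR). Its neighbour Mir30d had 4841, 4340.2 and 3241 with AVE0991 and 8048, 8197 and 6213 in the model group, a log2 fold change of -0.80 ± 0.18 (adjusted p = 0.0183, edgeR). Both loci of the pair were lowest in AVE0991 c and, within the model group, in model c.

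On chromosome 1, Mir30a had 5474, 4885 and 4888 normalized counts with AVE0991 and 8089, 7663 and 6649 in the model group. This gave a log2 fold change of -0.50 ± 0.13 (adjusted p = 0.0334, edgeR). For Mir30c-2 the values were 3399, 3228 and 2770.1 with AVE0991 and 4939, 4696 and 4411 without, a log2 fold change of -0.53 ± 0.13 (adjusted p = 0.0287, edgeR). Again no AVE0991 library reached the lowest model library. Both chromosome 1 calls were lost in every fit with a library left out except the one without model c (adjusted p up to 0.123 and 0.106, edgeR), and Mir30d was lost without AVE0991 b or c or model a or b (up to 0.0753). With the span trend removed, the log2 fold changes of Mir30a, Mir30b, Mir30c-2 and Mir30d were -0.04, -0.42, -0.10 and -0.37, none past the threshold.

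**Figure D2:**
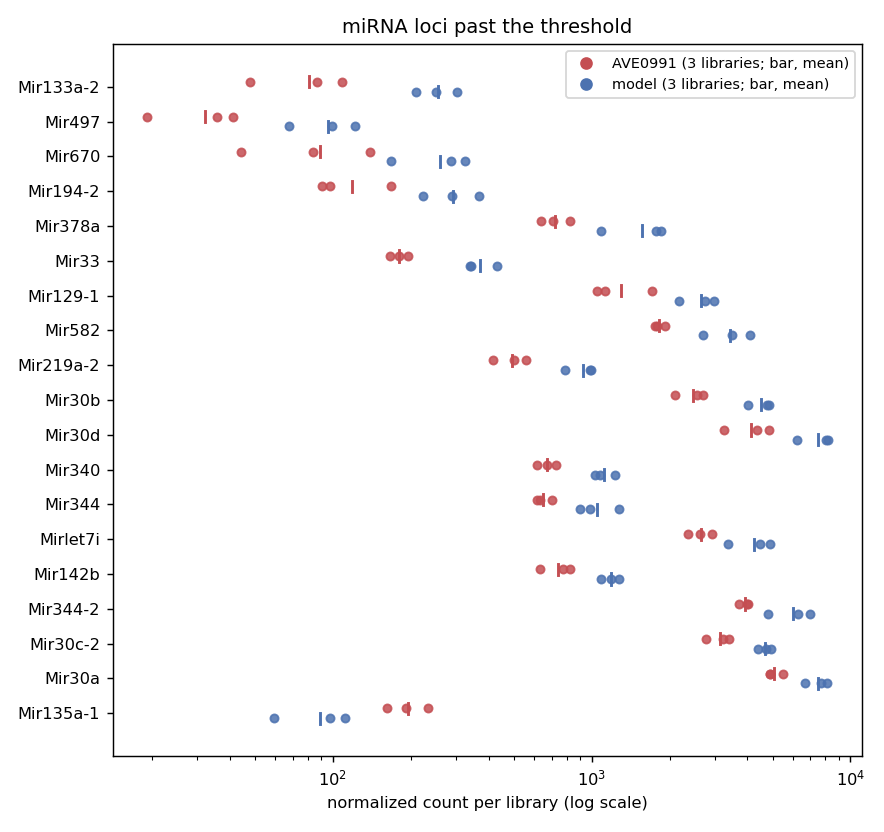
Normalized counts per library (log axis) of the 19 loci past the threshold, ordered by log2 fold change; points are single libraries, 3 per group, and short bars are group means. In the 18 lower loci every AVE0991 point lies to the left of every model point, and Mir135a-1 at the bottom is the reverse, with 162 to 232 against 59.1 to 112.

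Let-7 miRNAs promote differentiation, oppose Lin28 and are among the most abundant miRNAs of the adult brain. Under the let-7 name there are 5 loci, and RefSeq lists let-7j as a synonym of a sixth, Mir7j. Mirlet7i, a single locus near Mon2 on chromosome 10, had 2622, 2916 and 2366 normalized counts with AVE0991 and 4886, 4485 and 3361 in the model group. Model c was the lowest of its model libraries, and the groups did not overlap. Mirlet7i thus had a log2 fold change of -0.64 ± 0.17 (adjusted p = 0.0370, edgeR), and the call was lost in every fit with a library left out except that without model c (up to 0.137). Mirlet7d, on chromosome 13, had 4449, 4213 and 2945 with AVE0991 and 6551, 6541 and 5049 in the model group, a log2 fold change of -0.60 ± 0.18 that missed the threshold (adjusted p = 0.0566, edgeR). Mirlet7b, inside the long non-coding RNA Lncppara, was far less abundant, with 12.1, 10.2 and 4.34 against 38.2, 30.4 and 30.5. Its log2 fold change, -1.83 ± 0.58, was the most negative of all tested loci but did not pass (adjusted p = 0.0655, edgeR).

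Mirlet7c-1, the most abundant let-7 locus by count, had a smaller difference. Its values were 12019.9, 10351 and 10322 with AVE0991 and 12457, 11506 and 12127 in the model group, so that AVE0991 a lay among the model libraries. The locus had a log2 fold change of -0.09 ± 0.11 (adjusted p = 0.637, edgeR). Mirlet7a-1, the chromosome 13 neighbour of Mirlet7d, and Mir7j had at most 4.97 normalized counts as a group mean and were not tested. Of the 4 let-7 loci tested, 1 fell and 3 did not pass, with a median log2 fold change of -0.62. The difference between Mirlet7c-1 and the other let-7 loci was not tested.

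Loci of the miR-15/16 group, which restrain the cell cycle, were split between a tested pair and a sparse pair. Mir497 had 19.1, 35.7 and 41.3 normalized counts with AVE0991 and 121, 99.3 and 67.5 in the model group. Its highest AVE0991 value stayed below the lowest model value, that of model c. This gave a log2 fold change of -1.52 ± 0.40 (adjusted p = 0.0355, edgeR), and the call was lost in 5 of 6 fits, all but that without model c (up to 0.146). Mir195a, its chromosome 11 cluster partner, had 3.02, 3.06 and 0 with AVE0991 and 31.4, 36.7 and 5.54 in the model group and was too sparse to be tested; its low model value again came from model c. Mir16-1 had 2694, 2163 and 2399.8 with AVE0991 and 3467, 3159 and 2725 in the model group, a log2 fold change of -0.31 ± 0.15 that did not pass (adjusted p = 0.194, edgeR). Mir195b, on chromosome 2, had no counts in the model group and a mean of 2.07 with AVE0991.

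**Figure D3:**
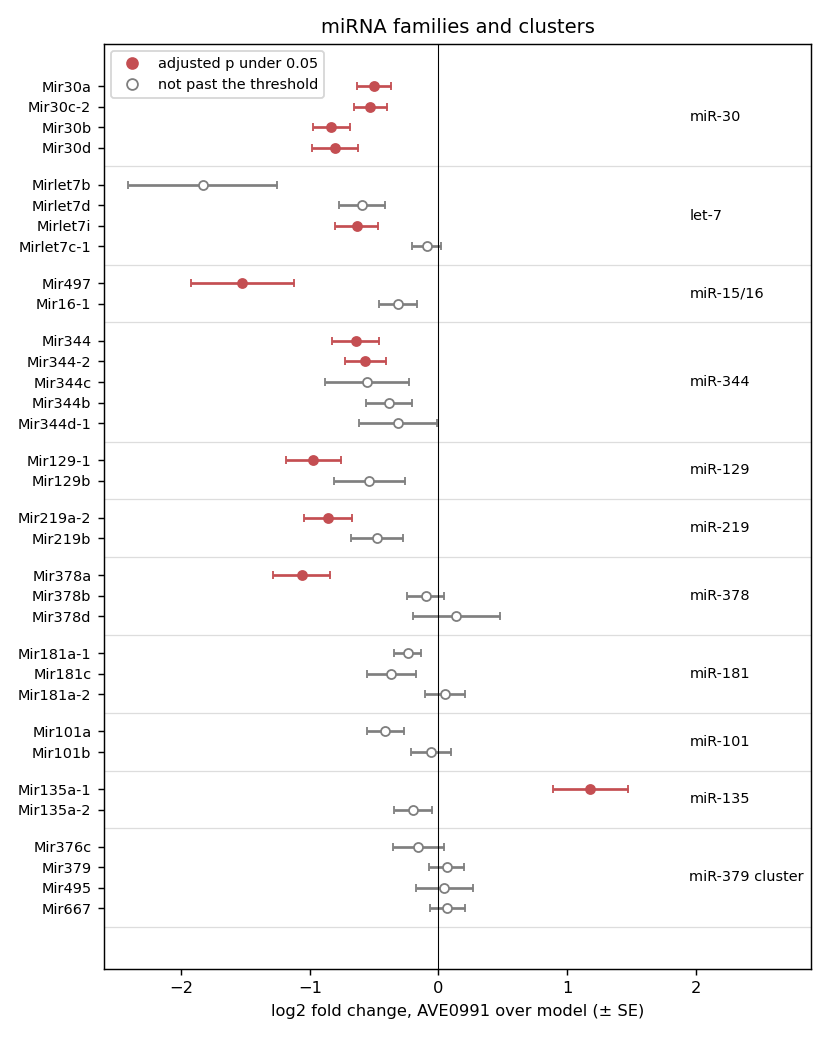
Log2 fold changes (AVE0991 over model) with their standard errors for tested loci of 11 families or clusters; filled points passed the adjusted threshold and open points did not. All 4 tested miR-30 loci are filled and negative. The 4 tested loci of the miR-379 cluster sit between -0.16 and 0.07, and Mir135a-1 is the filled point on the right at 1.18.

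Several loci of brain-enriched miRNAs were measured. Mir129-1, whose miRNA is enriched in neurons, had 1131, 1715 and 1045 normalized counts with AVE0991 and 2975, 2749 and 2182 in the model group. AVE0991 b was the highest of its group and still lay below model c. This gave a log2 fold change of -0.97 ± 0.21 (adjusted p = 0.0182, edgeR). Mir129b, at the other miR-129 locus on chromosome 2, had 2477, 1652 and 1232 against 3606, 2202 and 2207, and here AVE0991 a overlapped the model group (log2 fold change -0.54 ± 0.28, adjusted p = 0.232, edgeR). Mir670, which lies with Mir129b in the long non-coding RNA Mir670hg, had 44.3, 139.8 and 83.6 with AVE0991 and 324, 287 and 167 in the model group. That is a log2 fold change of -1.48 ± 0.42 (adjusted p = 0.0445, edgeR). The calls of Mir129-1 and Mir670 were lost without AVE0991 a or c or model a or b (up to 0.0799 and 0.156, edgeR).

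Mir219a-2 encodes miR-219, known for driving oligodendrocyte differentiation and myelination. It had 414, 499.9 and 558 normalized counts with AVE0991 and 988, 999 and 789 in the model group, the groups well apart. Its log2 fold change was -0.86 ± 0.19 (adjusted p = 0.0190, edgeR; lost without AVE0991 a or b or model a or b, up to 0.0823). Mir219b, annotated at the same place within the span of Cercam, had 316, 398 and 255 against 429, 535 and 434 and a log2 fold change of -0.48 ± 0.20 (adjusted p = 0.149, edgeR). No AVE0991 library of Mir219b exceeded the lowest model library either. Mir219c, on chromosome 17, had means of 1.37 and 3.94 and was not tested. Of the oligodendrocyte list, these first 2 loci were tested, and 1 fell.

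Of the pair of miR-135a loci, Mir135a-1 was the one locus that rose: it had 193, 162 and 232 normalized counts with AVE0991 and 97.6, 59.1 and 112 in the model group. Every AVE0991 value lay above the highest model value. The log2 fold change was 1.18 ± 0.29 (adjusted p = 0.0300, edgeR), and the call was lost without AVE0991 a or c or model a or b (up to 0.0983). In RefSeq it overlaps both the protein-coding gene Glyctk and the long non-coding RNA D030055H07Rik, whose reads cannot be told apart from its own without strand information. Mir135a-2, beside the midbrain long non-coding RNA Rmst and known for tuning Lmx1b in midbrain dopaminergic progenitors, had 4426, 4038 and 3620.3 with AVE0991 and 5242, 5057 and 4066 in the model group. These ranges overlapped (log2 fold change -0.20 ± 0.15, adjusted p = 0.405, edgeR). Whether the fold changes of the pair differ was not tested. Mir9-1, a neural progenitor miRNA locus, had means of 3.38 and 1.98 normalized counts and was not tested. Of the 4 listed neuron loci with a row, 3 were tested: Mir129-1 fell, Mir135a-1 rose and Mir135a-2 did not pass.

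The 5 Mir344 loci, a rodent family on chromosome 7, all had negative log2 fold changes. Mir344-2 had 3717, 3975 and 4016 normalized counts with AVE0991 and 6956, 6258 and 4820.1 in the model group, a log2 fold change of -0.57 ± 0.16 (adjusted p = 0.0451, edgeR). The AVE0991 values were tight and the model values spread, with model c the lowest. Mir344 had 613, 629.5 and 704 against 1273, 985 and 900.1, a log2 fold change of -0.64 ± 0.18 (adjusted p = 0.0468, edgeR). Both calls were lost in 5 of 6 fits, all but that without model c (up to 0.168 and 0.177), and with DESeq2 size factors or library totals in place of TMM. Mir344b, Mir344c and Mir344d-1 had log2 fold changes of -0.38, -0.55 and -0.31, and in each the groups overlapped.

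Among loci tied to other cell types, the muscle miRNA locus Mir133a-2 had the largest called fall. It had 86.7, 108 and 47.8 normalized counts with AVE0991 and 209.5, 251 and 302 in the model group. Model c was here the highest of the 6 libraries, and AVE0991 c the lowest. The log2 fold change was -1.60 ± 0.31 (adjusted p = 0.0119, edgeR), and it also passed with the span trend removed (-1.21, adjusted p = 0.0313). RefSeq places it inside Mir1a-1hg, the host of the muscle miRNAs miR-1a and miR-133a. It is the one locus of the muscle list with a row.

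Mir142b lies at the miR-142 locus, which is expressed in leukocytes and microglia. Its values were 823, 775 and 632 with AVE0991 and 1189, 1276 and 1089 in the model group, with no overlap. The log2 fold change was -0.62 ± 0.15 (adjusted p = 0.0300, edgeR), lost in every fit with a library left out except that without model c (up to 0.118). It is the one locus of the microglia and leukocyte list with a row. The host of a further inflammatory miRNA, Mir155hg, had overlapping groups and a log2 fold change of -0.80 ± 0.41 (adjusted p = 0.226, edgeR). Mir146b, not on the list, also had overlapping groups, with a log2 fold change of -0.24 ± 0.55 (adjusted p = 0.812, edgeR). Of the vascular list, Mir145b had means of 117 ± 41.1 with AVE0991 against 112 ± 44.2 without (SD, n = 3 each), and Mir126b had at most 2.39. The erythroid locus Mir144 had 0, 30.6 and 4.34 with AVE0991 and 30.5, 3.58 and 7.39 in the model group, so its counts came in the main from 1 library of each group; it was not tested. Whether the share of these cell types moved with the groups was not tested.

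Mir194-2, of a pair of miRNAs best known from liver and gut, had 97.8, 167 and 91.2 normalized counts with AVE0991 and 222, 367 and 288 in the model group. A log2 fold change of -1.24 ± 0.29 resulted (adjusted p = 0.0243, edgeR), lost without AVE0991 a or c or model b (up to 0.0946). Mir214, encoded in Dnm3os and the one locus with a row from a list of miRNAs reported to target α-synuclein, had 73.6, 74.5 and 66.2 with AVE0991 and 126, 142 and 109 in the model group. The AVE0991 values were close together and below all model values, but the log2 fold change of -0.76 ± 0.24 missed the threshold (adjusted p = 0.0622, edgeR). Mir92-1, of the miR-17-92 cluster, had overlapping groups and a log2 fold change of -0.41 ± 0.46. Mir223, named in the series title, is not analysed here.

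Besides Mir219a-2, 4 of the loci that fell lie within the span of a protein-coding gene. Mir33 lies in Srebf2, the regulator of cholesterol synthesis, and miR-33 itself limits cholesterol efflux. It had 166, 179.6 and 195 normalized counts with AVE0991 and 341, 430.5 and 338 in the model group. The highest AVE0991 value was well below the lowest model value, with a log2 fold change of -0.98 ± 0.19 (adjusted p = 0.0128, edgeR; lost without AVE0991 a or model b, up to 0.0568). Mir378a, in the mitochondrial coactivator gene Ppargc1b, had 712, 825 and 635 against 1772, 1851 and 1083. Mir378a had a log2 fold change of -1.06 ± 0.22 (adjusted p = 0.0152, edgeR), with model c far below the other model libraries. Mir378b, in Msi2, and Mir378d had log2 fold changes of -0.10 ± 0.15 and 0.14 ± 0.34, and neither passed.

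Mir582, in the phosphodiesterase gene Pde4d, had 1785, 1925 and 1754 normalized counts with AVE0991 and 4096, 3476 and 2698 in the model group. The AVE0991 values lay close together and the model values ran over a wide range, with model c lowest. Its log2 fold change was -0.86 ± 0.17 (adjusted p = 0.0138, edgeR). Mir340, in the ubiquitin ligase gene Rnf130, had 728, 617 and 674 against 1231, 1029 and 1076, a log2 fold change of -0.67 ± 0.16 (adjusted p = 0.0231, edgeR). The calls of Mir378a and Mir582 were lost without AVE0991 a or c or model a or b (up to 0.0687 and 0.0545), and that of Mir340 in all but the fit without model c (up to 0.0986). Reads from introns of these host genes cannot be told apart from reads of the miRNA transcripts, and the host genes have no row of their own among the named RNAs.

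By annotated place, 39 tested loci lay within a protein-coding gene, 16 within a long non-coding RNA alone and 32 outside both. Of these, 5, 3 and 10 fell (12.8%, 18.75% and 31.25%), against 8.32% called lower over all names tested. The median log2 fold changes were -0.35, -0.41 and -0.34. Whether the 3 sets differ from each other or from all names was not tested. The 1 locus that rose is in the first set. By level, with all tested names cut into 3 classes of near-equal size, 13 of 44 loci in the highest class fell (29.5%), 4 of 26 in the middle class (15.4%) and 1 of 17 in the lowest (5.88%). Over all names the shares called lower in these classes were 13.7%, 8.86% and 2.41%. Calls thus became more frequent with level among these loci and among all names alike.

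The 10 most abundant loci held 65.2% of the normalized counts of all 109, and 2 of them fell, Mir30a and Mir30d. Mir568 had the highest mean, at 30805 ± 3181 with AVE0991 against 32824 ± 522 without (SD, n = 3 each), and a log2 fold change of -0.04 ± 0.10. Its annotated place overlaps Tigit and is near Zbtb20. Mir181a-1, whose miRNA is abundant in brain and lymphocytes, had 24763, 26219 and 21559 with AVE0991 and 30510.3, 30449.6 and 27779 in the model group. The groups did not overlap, yet the log2 fold change of -0.24 ± 0.10 did not pass (adjusted p = 0.155, edgeR). Mir181c had a log2 fold change of -0.37 ± 0.19 and Mir181a-2, within Nr6a1, one of 0.05 ± 0.16. Mir125b-2, the locus of a widespread neural miRNA, had 20118 ± 2075 and 21616 ± 1368 (SD, n = 3 each; log2 fold change -0.05 ± 0.11). Mir690, within Fgf12, had 7911, 8826 and 9410.3 against 12323, 11088 and 10418, again without overlap and without passing (log2 fold change -0.32 ± 0.13, adjusted p = 0.142, edgeR). Mir325 and Mir384, both on chromosome X, had log2 fold changes of -0.11 ± 0.12 and -0.01 ± 0.13.

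Loci of the imprinted miR-379 cluster on chromosome 12, expressed from the maternal chromosome and active in neurons, gave no calls. Only 4 of its 39 RefSeq loci have a row here. Mir379 had 4146, 4572 and 4862 normalized counts with AVE0991 and 4792, 4548 and 4148 in the model group, fully overlapping. The log2 fold changes of Mir376c, Mir379, Mir495 and Mir667 were -0.16 ± 0.20, 0.06 ± 0.14, 0.05 ± 0.22 and 0.07 ± 0.14, and none of the 4 passed. With the span trend removed, Mir379 and Mir667 were called higher, at 0.53 and 0.49 (adjusted p = 0.0274 and 0.0449, edgeR). That step moved the median of all 87 tested loci from -0.38 to 0.06, so these 2 calls cannot be read as a rise of the cluster. On chromosome X, a cluster known mainly from testis has 19 loci in RefSeq, of which 6 have a row here. Mir465, Mir471, Mir742, Mir878 and Mir883b were close to absent, with at most 3.52 normalized counts as a group mean. Mir743 was the exception, with 194, 191 and 179 against 274, 199 and 302 (log2 fold change -0.41 ± 0.22, adjusted p = 0.241, edgeR).

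Where a long non-coding RNA at the same place has a row of its own, the pair can be set side by side; the rows may share reads, so they are not independent. A230057D06Rik, which spans Mir344, Mir344b and Mir344c, had 1786, 1861 and 1967 normalized counts with AVE0991 and 3863, 3229 and 2403 in the model group. Like Mir344 it fell, with a log2 fold change of -0.70 ± 0.19 (adjusted p = 0.0355, edgeR). Dleu2, the host of Mir16-1, had 3159, 2961 and 3169.7 against 5239, 4541 and 3987 and fell too (-0.51 ± 0.14, adjusted p = 0.0445, edgeR). Dnm3os, the host of Mir214, had 2002, 1913 and 1737 against 2879, 2750.2 and 2249, with no overlap and a log2 fold change of -0.43 ± 0.14 (adjusted p = 0.0760, edgeR). The calls of A230057D06Rik and Dleu2 were each lost whenever any library but model c was left out (adjusted p up to 0.131 and 0.164, edgeR). In these 3 pairs the ranges of the log2 fold change plus and minus its standard error overlapped between locus and host. Removing the span trend shifts short and long names by different amounts, so that fit cannot show whether a locus and its host differ. In it, A230057D06Rik and Dleu2 were lower, at -0.99 and -0.74 (adjusted p = 0.0219 and 0.0183, edgeR). Their loci Mir344 and Mir16-1 then had -0.23 and 0.11 and did not pass (adjusted p = 0.427 and 0.660, edgeR). Dnm3os and Mir214 had -0.47 and -0.37 in that fit, neither past the threshold.

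In the remaining pairs the long non-coding RNA did not pass. Mirg, the non-coding transcript of the miR-379 cluster, had a log2 fold change of 0.04 ± 0.17, beside 0.06 for Mir379. Mir99ahg, the known host of let-7c-1 and miR-125b-2, had one of 0.01 ± 0.13, beside -0.09 and -0.05. Rmst had one of 0.02 ± 0.13, beside -0.20 for Mir135a-2. Mir101a had 905, 798 and 915 with AVE0991 and 1157, 1285 and 1178 in the model group, without overlap (log2 fold change -0.41 ± 0.14, adjusted p = 0.0851, edgeR). In contrast, the nearby 0610043K17Rik had 985, 1156 and 897 against 981, 817 and 1090.4 and a log2 fold change of 0.12 ± 0.17. The sparse E130102H24Rik, which overlaps Mir101a, had 0.15 ± 0.63. The other miR-101 locus, Mir101b in Rcl1, had a log2 fold change of -0.06 ± 0.16. None of these differences between a locus and its neighbour was tested.

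**Figure D4:**
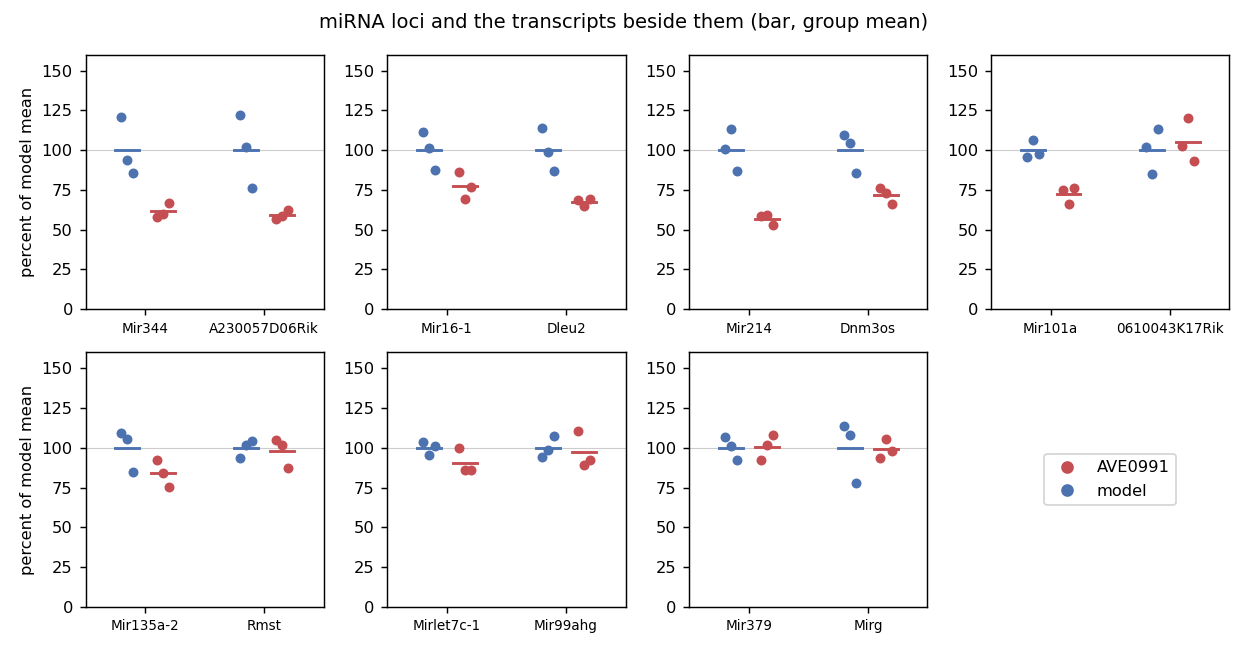
Normalized counts as a percentage of the model mean for 7 miRNA loci and the long non-coding RNA at or near the same place; points are libraries (3 per group) and bars are group means. Mir344, Mir16-1 and Mir214 and their hosts A230057D06Rik, Dleu2 and Dnm3os all lie lower with AVE0991, Mir101a lies lower beside an overlapping 0610043K17Rik, and the last 3 pairs overlap between groups.

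A further locus came near the threshold: Mir762, in Bcl7c, had 112, 119 and 60.8 with AVE0991 and 162, 215 and 191 in the model group (log2 fold change -0.91 ± 0.28, adjusted p = 0.0604, edgeR). With Mirlet7d, Mir214, Mirlet7b and Mir101a it makes 5 loci with an adjusted p between 0.05 and 0.10, all lower and all without overlap between the groups. At the other extreme, Mir331, in Vezt, was high in 1 library of each group and low in the rest, with 2038, 106 and 83.6 with AVE0991 and 93.3, 47.4 and 2149 in the model group. Its log2 fold change of -0.01 ± 1.47 therefore says nothing of direction. Mir24-1 was also uneven, with 1209, 536 and 1796 against 1502, 1318 and 624.

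Of the other tested loci, 10 are given here as examples. Mir208a, in the heart myosin gene Myh6, had 443, 448 and 370.3 normalized counts with AVE0991 and 637, 584 and 507 in the model group, without overlap (log2 fold change -0.40 ± 0.17, adjusted p = 0.147, edgeR). Mir130a, of a family that includes miR-301, had 4245, 4634 and 3862 against 5795, 5383 and 5239, also without overlap (-0.31 ± 0.13, adjusted p = 0.132, edgeR), while Mir301, in Ska2, had overlapping groups (-0.20 ± 0.24). Mir698, in Inpp5b, had 93.7, 153 and 154 against 271, 239 and 179, and Mir701, in Ttc28, had 359.8, 596 and 493 against 642, 848 and 674. Both were lower in each AVE0991 library than in any model library, with log2 fold changes of -0.73 ± 0.27 and -0.52 ± 0.22 that did not pass. Mir706, in the kinase gene Wnk1, had 1009, 913 and 542 against 1076, 1356 and 1183 (-0.50 ± 0.22, adjusted p = 0.164, edgeR). In the other direction, Mir103-2, in Pank2, Mir182, whose miRNA is known from sensory neurons, and Mir671, in Chpf2, had log2 fold changes of 0.29 ± 0.25, 0.18 ± 0.22 and 0.12 ± 0.25, with overlapping groups. Mir466i, in Cdk13, was abundant and close between groups, with 3712, 3207 and 3233 against 3673, 3602 and 3423 (-0.02 ± 0.12).

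The 22 loci that were not tested had no group mean above 24.5 normalized counts, and none had counts in all 6 libraries. Of these, 18 had a lower mean with AVE0991, and 2, Mir195a and Mir216c, did so without overlap. The same counts over all untested names are not given here, so these have no share to be set against. Direction at such low counts was not tested. Mir653 and Mir742 had no counts with AVE0991 and means of 2.88 and 1.19 in the model group. At the edge of the naming rule, Mir883b, the highest number inside it, had means of 1.36 and 3.52. The next numbers outside it were Mir1187, with 1.34 and 1.19, and Mir1191, with 2991 and 3287.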

How the data were processed

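Per the labels' protocols, TRIzol was used to extract total RNA, FastQC 0.11.8 to check reads and Fastp 0.19.5 to clean them. The submitters' processing notes name mm9, DESeq2 1.10.1 and STAR 2.7.7a. Counting program, annotation and strand setting: none is stated in these sources. The authors deposited whole-number counts per NONCODE identifier, used here for library totals. Their deposited table by name gives a mean signal per group (counts divided by library factors), a test statistic with its degrees of freedom (scores), an unadjusted p-value and a log2 fold change with a pseudocount of 1. No file pairs names with identifiers.

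Whole counts per library were recovered from means, statistic and degrees of freedom (relative tolerance 1e-09). Of 2247 names with a statistic, 2236 (99.51%) had exactly 1 set, all 109 miRNA loci among them, and 35 more were 0 throughout. On simulated data 2205 of 2213 names had 1 set, all 2205 equal to the simulated counts. The test was edgeR 4.0.16 (R 4.3.3; quasi-likelihood, TMM, filterByExpr) over all recovered names; SE is the fold change over the square root of F. In a simulation of this comparison (1830 names), 47.7% of 86 changes of 2-fold and 86.7% of 113 changes by 2 on the log2 scale were called, and 7.33% of calls were unchanged names.

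Alternatives were other scalings, filters and tests (DESeq2 1.42.0, limma-voom 3.58.1, the deposited p-values), each library left out, and removal of the trend on annotated span. Families follow the names, with 2 exceptions set from known membership. Mir7j was placed with let-7, and Mir16-1, Mir195a, Mir195b and Mir497 were joined as the miR-15/16 group. Clusters join RefSeq miRNA loci within 10 kb, without strand. Mature sequences were not used here. All 109 names matched RefSeq symbols (GRCm38.p6), used for neighbours only, since the builds differ. Named loci are those past the threshold, those with an adjusted p up to 0.10, the 10 most abundant, cluster members, listed markers and their hosts; Mir331, Mir24-1, the 10 examples and a few family members were added after their values were seen. The loci and lists were chosen with earlier results of these data known. Samples were grouped by their titles.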

Additional observations from a re-analysis of the deposited data

How the results depend on the processing

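Under the other scalings, filters and count tests, 16 to 21 loci were lower and 1 was higher; 17 of the 19 calls were kept in all of these 8 alternatives, Mir344 and Mir344-2 being the exceptions. A 2-fold minimum left 5 lower. Of the loci near the threshold, Mirlet7d passed in the DESeq2 test, limma-voom, edgeR's robust setting and edgeR without model c (adjusted p = 0.0201, 0.0394, 0.0481 and 0.0212). Mirlet7b and Mir762 passed in the DESeq2 test alone (adjusted p = 0.0312 each). Mir214 and Mir101a passed in none. The authors' deposited p-values, adjusted over all names, gave 0 lower and 0 higher; an unadjusted p under 0.05 was found there for 26 of the 109 loci (23.9%) and 423 of 2247 names (18.8%), and in edgeR for 31 of the 87 tested loci (35.6%) and 576 of 1864 names (30.9%). Of the 19 called loci, 14 had an unadjusted deposited p under 0.05. Mir344, Mir344-2, Mir378a, Mir582 and Mirlet7i did not (0.0622, 0.0755, 0.0677, 0.0559 and 0.059, deposited test). The cause of the difference between the deposited test and edgeR was not tested. Leaving out a library gave 2 to 21 lower and 0 to 1 higher, with fewer samples in each fit. For none of the alternatives here are the adjusted calls over all names given, so these counts of loci have no such share beside them. Removing the trend on annotated span gave 1 lower and 4 higher (Mir135a-1, Mir379, Mir568 and Mir667) and a median log2 fold change of 0.0565 in place of -0.38; since 220 of 246 names with a span under 200 bases are miRNA loci, this step largely sets these loci against each other. Mir101a, not past the threshold, then had 0.0192 in place of -0.41. No called locus changed sign in any alternative. No paired analysis was possible because the libraries recovered from the named table carry no replicate number.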
